A study of Mus musculus with 8 samples.

Results

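The 10 genes described here encode 5 secreted Wnt proteins (Wnt3, Wnt3a, Wnt4, Wnt6 and Wnt7b), 2 Frizzled receptors (Fzd5 and Fzd7), the co-receptors Lrp5 and Lrp6, and Porcn, the enzyme that makes Wnt proteins fit for secretion. They were chosen by name, and each was measured by the probe sets that the array's annotation pairs with that 1 gene symbol, 16 probe sets in all. The probe set brightest on average across the 8 arrays stood for the gene, and all 10 were among the 18193 genes measured. No filter on low values was applied, so none was lost.

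RNA came from embryonic stem (ES) cells of male 129S4/Svjae mice, grown with leukemia inhibitory factor (LIF), with 1 oligonucleotide array per sample. ES cells are lines derived from the early embryo that can give rise to all tissues of the body. All samples had been infected with lentivirus carrying a short hairpin RNA, selected with puromycin and passaged before collection. The hairpin was directed against GFP in the 3 control samples, against Jmjd2b in 3 samples and against Jmjd2c in 2 samples. Jmjd2b and Jmjd2c, whose array symbols are Kdm4b and Kdm4c, are enzymes that remove methyl groups from histone H3. The study's title asks what both do for ES cell identity. The number of hairpins per target was not stated in the labels used here. Nor do these say whether replicates were separate infections, so p-values cover only the spread between these samples, and that spread may be technical.

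Wnt proteins carry a fatty acid that Porcn attaches in the endoplasmic reticulum and without which they are not secreted. Outside the cell a Wnt binds a Frizzled receptor together with Lrp5 or Lrp6, and this halts the complex of Axin, Apc, casein kinase and Gsk3 that marks beta-catenin for destruction. Beta-catenin then acts in the nucleus with the TCF/LEF factors. In ES cell cultures the pathway is known to support self-renewal by relieving repression by Tcf7l1, while in the embryo Wnt3 is needed to form the primitive streak, from which mesoderm and endoderm arise.

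The promoters of Wnt3, Wnt4 and Fzd5 are shown because these 3 genes passed the test in both knockdowns. Each sequence runs from 250 bases before the annotated start to 30 bases after it, 5′ to 3′ on the strand of the gene, as RefSeq gives it for build GRCm38.p6. Capitals mark the SP/KLF motif GGGCGG or its reverse complement CCGCCC, and the TCF/LEF motif CTTTGTT. Wnt3 lies at chr11:103773925-103774204 on the plus strand, Wnt4 at chr4:137277385-137277664 on the plus strand, and Fzd5 at chr1:64737721-64738000 on the minus strand.
Wnt3: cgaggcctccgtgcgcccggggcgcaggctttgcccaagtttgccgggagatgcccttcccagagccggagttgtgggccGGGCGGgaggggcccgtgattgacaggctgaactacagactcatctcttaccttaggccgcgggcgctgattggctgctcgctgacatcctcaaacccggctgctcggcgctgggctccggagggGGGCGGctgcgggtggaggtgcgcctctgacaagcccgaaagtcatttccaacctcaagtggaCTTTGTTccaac
Wnt4: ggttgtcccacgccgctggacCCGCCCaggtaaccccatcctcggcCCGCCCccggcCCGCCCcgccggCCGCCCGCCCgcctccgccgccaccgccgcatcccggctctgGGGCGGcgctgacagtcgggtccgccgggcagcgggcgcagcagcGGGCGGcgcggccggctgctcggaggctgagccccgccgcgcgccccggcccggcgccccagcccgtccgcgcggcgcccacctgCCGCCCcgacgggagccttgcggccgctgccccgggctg
Fzd5: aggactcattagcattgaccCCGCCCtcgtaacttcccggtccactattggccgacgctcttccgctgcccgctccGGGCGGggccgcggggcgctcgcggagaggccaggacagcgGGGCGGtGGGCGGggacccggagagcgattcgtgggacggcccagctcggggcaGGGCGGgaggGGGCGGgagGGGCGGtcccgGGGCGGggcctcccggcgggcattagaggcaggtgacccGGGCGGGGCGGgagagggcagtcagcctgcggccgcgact

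All 3 windows were rich in CpG dinucleotides, with 22 in Wnt3, 48 in Wnt4 and 35 in Fzd5, against a median of 6 over the 32851 promoters of the table. GGGCGG occurred 2 times in Wnt3, 8 times in Wnt4 and 10 times in Fzd5, counting both strands and overlapping matches separately; 34.69% of all promoters held it at least once. Of the TCF/LEF motifs CTTTGAT and CTTTGTT, only CTTTGTT was found in these 3 windows, once in Wnt3 from base 19 after the start. Either motif was present in 8.88% of all promoters. CACGTG, the E-box, was in none of the 3 and in 6.79% of all promoters. Promoters of Wnt3a, Wnt6 and Fzd7, genes that did not pass, were also in the table and were CpG-rich too, with 44, 30 and 21. They had 9, 6 and 6 matches to GGGCGG, and Fzd7 held CTTTGTT on the reverse strand at position -130. Promoters of Wnt7b, Lrp5, Lrp6 and Porcn were not used here. A match describes the letters in the window and is not a binding site.

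The targeted transcripts were low in the arrays of their own hairpin. Kdm4b stood at 10.75%, 6.27% and 3.638% of its control mean in the 3 Jmjd2b knockdown arrays, and Kdm4c at 11.08% and 36.66% of its control mean in the 2 Jmjd2c knockdown arrays. Each knockdown also read lower for the other transcript: Kdm4c was at 50.79% to 62.47% of control in the Jmjd2b knockdown, and Kdm4b at 52.29% and 60.88% in the Jmjd2c knockdown. Array medians lay between 44.74 and 46.62 intensity units. ES cell markers were bright in every array, with Pou5f1 between 7410 and 8038. Exactly equal values split the arrays into 3 sets: control 1, control 2 and Jmjd2b knockdown 2; control 3 and Jmjd2b knockdown 1; and Jmjd2b knockdown 3 with both Jmjd2c knockdown arrays. Pairs within a set shared 0.412% to 0.621% of their values, and pairs across sets 0.0355% to 0.0798%. The labels used here do not say what the sets stand for. No control array shared a set with the Jmjd2c knockdown. The main fit has no term for the set, so its Jmjd2c changes include any difference between the sets. Only a refit with the set as a block links the sets, and it does so through the Jmjd2b knockdown arrays.

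In the Jmjd2b knockdown, the ligands Wnt3 and Wnt4 rose and the receptor Fzd5 fell, and the other 7 genes did not pass the test. The same 3 genes passed in the Jmjd2c knockdown, in the same directions and by smaller amounts. Both comparisons use the same 3 control arrays, so this is not independent evidence. Of the 18193 genes tested, 11.5% were called up and 12.9% down with the Jmjd2b hairpin, and 4.28% up and 5.25% down with the Jmjd2c hairpin, beside 2 up and 1 down of the 10 in each. The median change of the 10 genes was 0.07 log2 units in the Jmjd2b knockdown and 0.09 in the Jmjd2c knockdown, beside -0.03 and -0.02 for all genes. All changes are differences of group means of log2(intensity + 16) from limma fitted over all genes and arrays, with p-values adjusted by Benjamini-Hochberg over all genes and called at 0.05. With the set of arrays as a block in the fit, an alternative added after seeing the data, the 3 calls in the Jmjd2b knockdown held, while limma called 0 of the 10 genes and 6 of all genes in the Jmjd2c knockdown (2 of the 10 had an unadjusted p under 0.05).

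**Figure D1:**
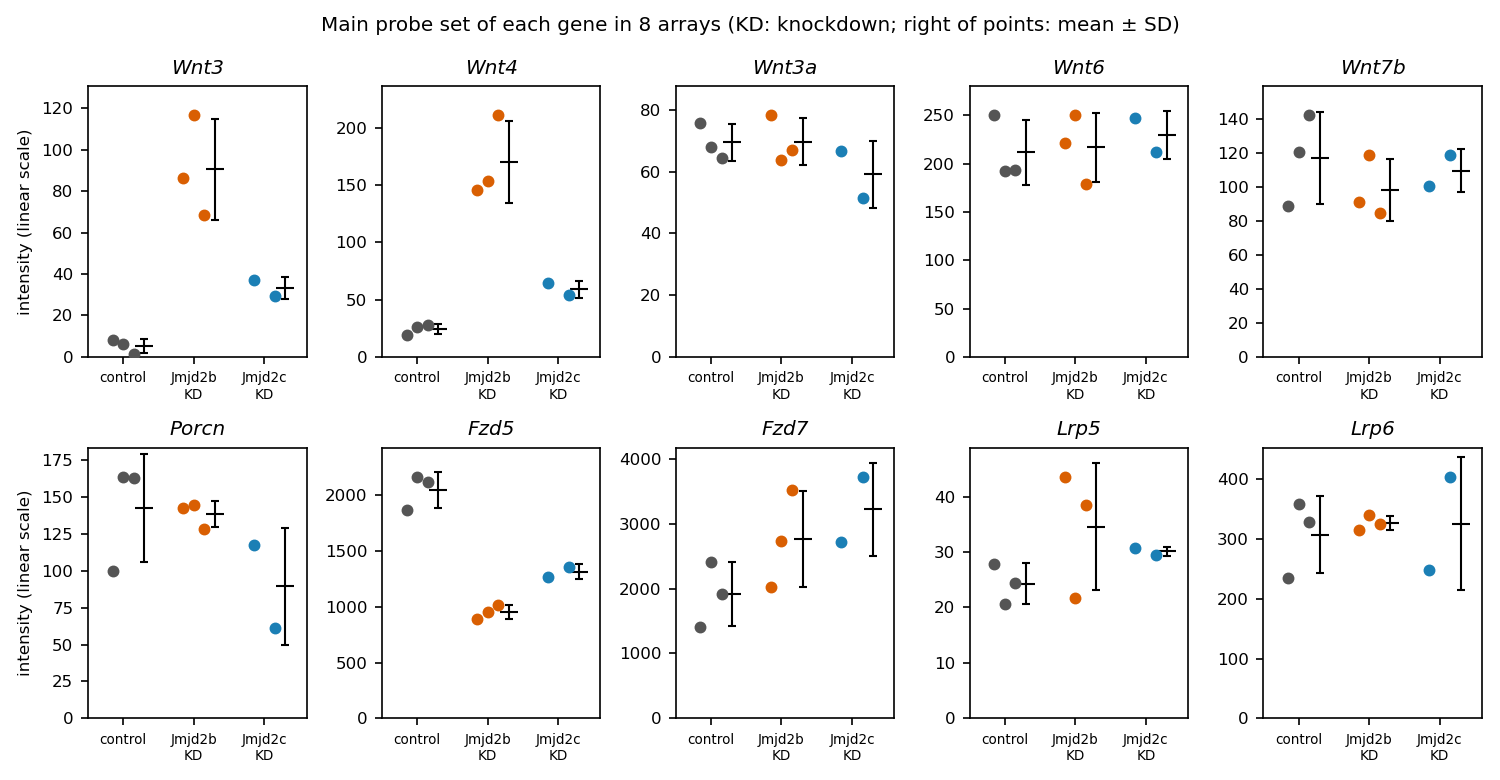
Intensity of the main probe set of each of the 10 genes (y axis, linear scale, own range per panel) in each array of the 3 groups (x axis; KD, knockdown), 1 point per array, with the group mean and SD beside the points. Wnt3 and Wnt4 are higher and Fzd5 is lower in all knockdown arrays than in all 3 controls, while for Wnt3a, Wnt6, Wnt7b, Lrp6 and Porcn neither knockdown is fully above or below the controls.

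Wnt3 was dim in the controls, at 8.03, 6.2 and 1.57 intensity units. It stood at 86.46, 116.75 and 68.53 with the Jmjd2b hairpin and at 36.98 and 29.31 with the Jmjd2c hairpin. Every knockdown array lay above every control, and both Jmjd2c knockdown arrays lay below all Jmjd2b knockdown arrays. The group means were 5.27 ± 3.33 (SD, n = 3), 90.6 ± 24.4 (SD, n = 3) and 33.1 ± 5.42 (SD, n = 2). Wnt3 rose by 2.31 ± 0.19 (SE) log2 units in the Jmjd2b knockdown (adjusted p = 7.8e-05). In the Jmjd2c knockdown it rose by 1.22 ± 0.21 (SE; adjusted p = 0.0096). Because the controls were near the bottom of the scale, the size depends on the constant added before the logarithm: with 1 in place of 16 the changes were 4.02 and 2.62, and with 64 they were 1.15 and 0.49, all past the threshold. Control 3 and Jmjd2b knockdown 1, which share a set, differed by 2.54. With the set as a block the Jmjd2c change was 1.75 (adjusted p = 0.065). The only Wnt3 probe set is of the type that can also bind related transcripts.

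Wnt4, a ligand best known from kidney and ovary development, read 19.42, 26.02 and 27.98 in the controls, 145.79, 153.64 and 211.0 with the Jmjd2b hairpin and 64.02 and 53.78 with the Jmjd2c hairpin. The 3 groups did not overlap, and the Jmjd2c knockdown lay between the others. Means were 24.5 ± 4.49 (SD, n = 3), 170 ± 35.6 (SD, n = 3) and 58.9 ± 7.24 (SD, n = 2). The rise was 2.19 ± 0.17 (SE) log2 units in the Jmjd2b knockdown (adjusted p = 6.0e-05), and 1.88 between control 3 and Jmjd2b knockdown 1, which share a set. It was 0.89 ± 0.19 (SE) in the Jmjd2c knockdown (adjusted p = 0.018). That second call was lost without control 1 (0.80, adjusted p = 0.065), without control 3 (0.95, adjusted p = 0.056), and with the set as a block (0.42, adjusted p = 0.54). As for Wnt3, adding 1 or 64 before the logarithm moved the sizes, here to 2.74 or 1.39 in the Jmjd2b knockdown and to 1.24 or 0.47 in the Jmjd2c knockdown.

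A second Wnt4 probe set moved less. It read 59.78, 53.92 and 48.01 in the controls, 80.99, 75.29 and 79.0 with the Jmjd2b hairpin and 66.17 and 64.52 with the Jmjd2c hairpin. All knockdown arrays were again above all controls. Its change was 0.44 ± 0.13 (SE) in the Jmjd2b knockdown (adjusted p = 0.037, over all probe sets) and 0.22 ± 0.14 in the Jmjd2c knockdown (adjusted p = 0.43). Averaging both probe sets gave Wnt4 changes of 1.31 and 0.56, both past the threshold.

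The other 3 ligands did not pass in either knockdown. Wnt3a, which drives mesoderm formation in the tail of the embryo and is used to support ES cell self-renewal in culture, averaged 69.5 ± 5.86 (SD, n = 3) in the controls, 69.7 ± 7.66 (SD, n = 3) in the Jmjd2b knockdown and 59.2 ± 10.8 (SD, n = 2) in the Jmjd2c knockdown. Its change in the Jmjd2b knockdown was 0.00, with a 95% interval of -0.31 to 0.32, and in the Jmjd2c knockdown it was -0.19 (-0.54 to 0.16). Wnt3 and Wnt3a both lie on chromosome 11 and belong to the same branch of the family, and their log2 changes in the Jmjd2b knockdown had intervals that did not meet (1.88 to 2.74 for Wnt3).

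Wnt6, found in many embryonic epithelia, had means of 212 ± 33.4, 217 ± 35.8 and 229.9 ± 25.1 in the control, Jmjd2b knockdown and Jmjd2c knockdown groups (SD, n = 3, 3 and 2). Its intervals ran from -0.33 to 0.39 and from -0.29 to 0.52. The dimmer Wnt6 probe set, of the type that can bind related transcripts, read 48.42, 24.71 and 27.67 in the controls and 81.85, 68.62 and 34.64 in the Jmjd2b knockdown, and these overlapped (change 0.62, adjusted p = 0.11). Wnt7b, a ligand needed for lung and placenta development, averaged 117 ± 27.0, 98.1 ± 18.3 and 109.5 ± 12.8 in the same order. Its changes of -0.21 (95% interval -0.63 to 0.20) and -0.07 (-0.53 to 0.39) did not pass. The dimmer Wnt7b probe set, below the median of its array in all 8 arrays, read 26.16, 25.27 and 23.3 in the controls and 27.72, 29.78 and 29.02 with the Jmjd2b hairpin. Its Jmjd2b arrays were all above the controls, opposite to the lean of the main probe set, and its change of 0.13 did not pass (adjusted p = 0.69).

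Porcn read 100.1, 163.93 and 162.99 in the controls, 142.77, 144.88 and 128.56 with the Jmjd2b hairpin and 117.62 and 61.23 with the Jmjd2c hairpin. The Jmjd2b knockdown arrays lay inside the control range, while 1 of the 2 Jmjd2c knockdown arrays lay below it. Both Jmjd2c knockdown arrays were below all Jmjd2b knockdown arrays, a difference of -0.61 that did not pass (adjusted p = 0.36). The change in the Jmjd2c knockdown was -0.61 ± 0.26 (SE; 95% interval -1.19 to -0.04) and did not pass (adjusted p = 0.18). It rested on the second array: without the first it was -1.01 (adjusted p = 0.023), and without the second -0.22.

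Of the receptors, Fzd5, which is needed for yolk sac and placental vessels in the mouse, read 1866, 2168 and 2118 in the controls, 893.56, 953.16 and 1019 with the Jmjd2b hairpin and 1267 and 1360 with the Jmjd2c hairpin. The groups did not overlap, and the replicates lay close together. Its mean fell to 46.6% of that in controls with the Jmjd2b hairpin and to 64.1% with the Jmjd2c hairpin. The log2 change was -1.09 ± 0.10 (SE) in the Jmjd2b knockdown (adjusted p = 9.9e-05) and -0.63 ± 0.11 in the Jmjd2c knockdown (adjusted p = 0.0086). With 1 or 64 added before the logarithm, the Jmjd2b change was -1.10 or -1.05. The Jmjd2c call was lost without control 3 (-0.61, adjusted p = 0.051) and with the set as a block (-0.77, adjusted p = 0.16), and the difference between control 3 and Jmjd2b knockdown 1 was -1.23.

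The dimmer Fzd5 probe set read 498.78, 563.16 and 660.45 in the controls, 281.04, 250.32 and 376.01 with the Jmjd2b hairpin and 483.77 and 359.28 with the Jmjd2c hairpin. It too was below all controls in every knockdown array. It fell by 0.90 ± 0.18 (SE) in the Jmjd2b knockdown (adjusted p = 0.0056), and changed by -0.44 ± 0.20 in the Jmjd2c knockdown, which did not pass (adjusted p = 0.24).

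Fzd7, a Frizzled receptor known as abundant in pluripotent cells, read 1413, 2409 and 1922 in the controls, 2031, 2734 and 3522 with the Jmjd2b hairpin and 2710 and 3727 with the Jmjd2c hairpin. Both Jmjd2c knockdown arrays were above all controls, while the Jmjd2b knockdown overlapped them. The changes of 0.52 ± 0.23 and 0.76 ± 0.26 (SE) did not pass (adjusted p = 0.13 and 0.095). With the replicate number as a block they were 0.52 and 0.87 and both passed (adjusted p = 0.017 and 0.013). With the set of arrays as a block they were 0.36 and 0.21 (adjusted p = 0.40 and 0.86). Control 3 and Jmjd2b knockdown 1, in 1 set, differed by 0.08. A dimmer Fzd7 probe set lay below the median of its array in all 8 arrays, with changes of 0.11 and 0.25.

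The co-receptors did not pass in either knockdown. Lrp6, the main Wnt co-receptor of the early embryo, averaged 308 ± 64.3, 327 ± 12.1 and 326 ± 111 (SD, n = 3, 3 and 2), with changes of 0.10 (95% interval -0.34 to 0.55) and 0.06 (-0.44 to 0.56). Its second probe set gave 0.21 and -0.21. Lrp5, best known for its role in bone mass, was below the median of its array in all 8 arrays and averaged 24.3 ± 3.67, 34.6 ± 11.5 and 30.1 ± 0.82, with changes of 0.30 (-0.10 to 0.70) and 0.20 (-0.25 to 0.65). The intervals for the Jmjd2b knockdown reach as far as the change seen there for Fzd7. Control 1 was the lowest control for Porcn, for both probe sets of Fzd5 and Lrp6, and for the main probe sets of Fzd7, Wnt4 and Wnt7b; for the second probe sets of these last 3 genes it was the highest.

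**Figure D2:**
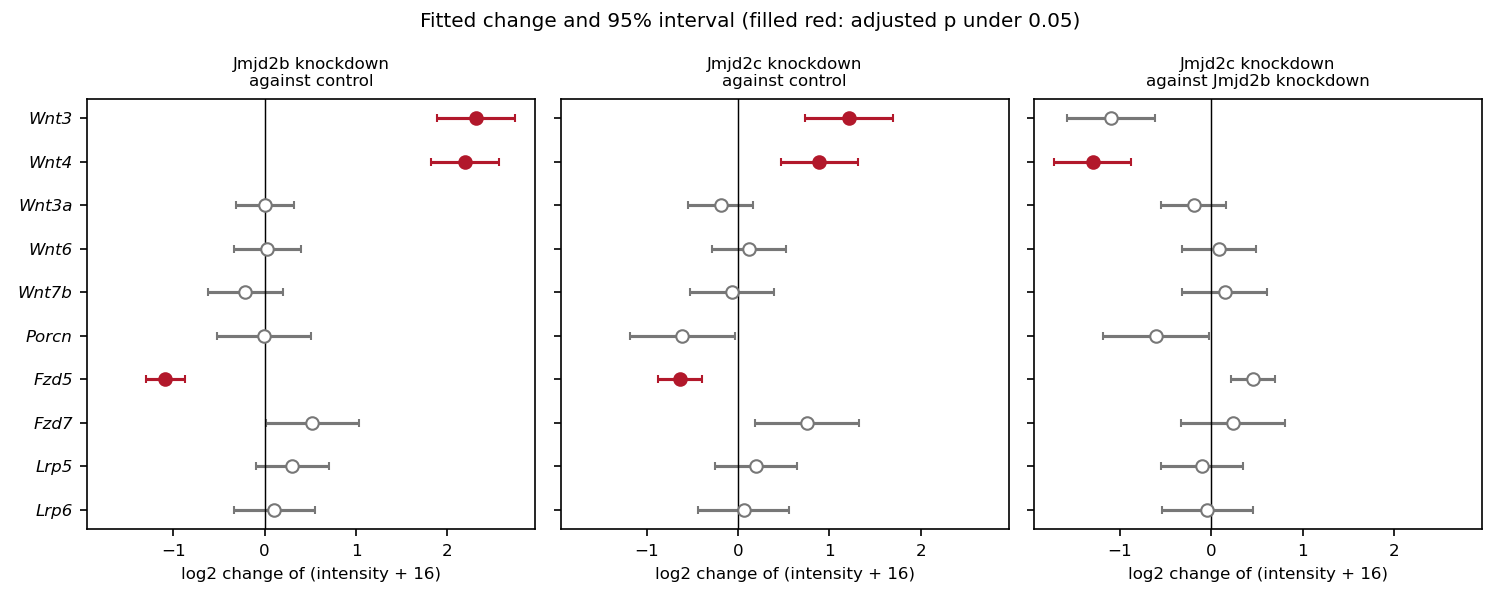
Fitted log2 change of intensity + 16 (x axis) with its 95% interval for each of the 10 genes (rows) in the 3 comparisons (panels); filled red points have an adjusted p under 0.05. Wnt3 and Wnt4 lie right of 0 and Fzd5 left of 0 in both comparisons with the control, and Wnt4 alone passes between the knockdowns.

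Between the 2 knockdowns, Wnt4 was lower in the Jmjd2c knockdown by the test, at -1.30 ± 0.19 (SE) log2 units (adjusted p = 0.023), and the other 9 genes did not pass. Over all genes, 0.137% were called higher and 0.33% lower in the Jmjd2c knockdown than in the Jmjd2b knockdown. The Wnt3 difference of -1.10 ± 0.21 narrowly missed the threshold (adjusted p = 0.060), passing with the replicate block (-1.24, adjusted p = 0.033), with 64 added before the logarithm (-0.66, adjusted p = 0.042) and without Jmjd2c knockdown array 1 (-1.21, adjusted p = 0.038). Fzd5 differed by 0.45 (95% interval 0.21 to 0.69, adjusted p = 0.10), with every Jmjd2c knockdown array above every Jmjd2b knockdown array. Fzd7 differed by 0.24 (-0.33 to 0.81). The Wnt4 call was lost without control 2 (adjusted p = 0.061), without control 3 (adjusted p = 0.055), without Jmjd2b knockdown array 2 (-1.36, adjusted p = 0.091) and with the set of arrays as a block (-1.60, adjusted p = 0.11).

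**Figure D3:**
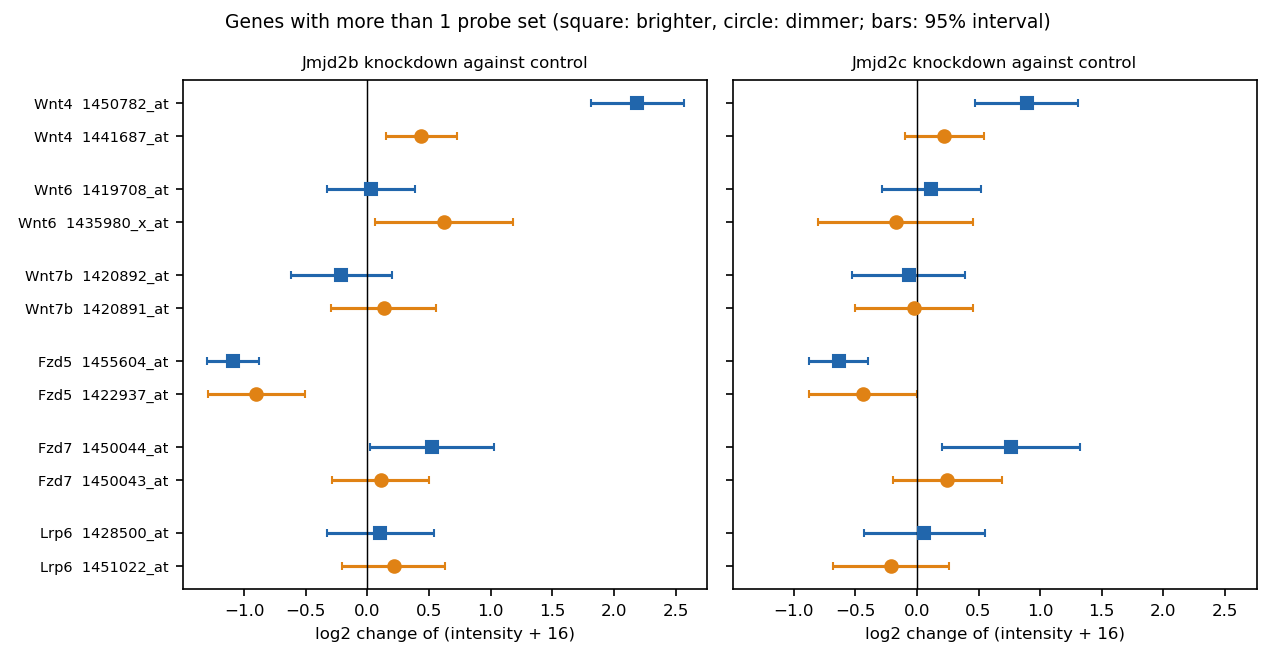
Fitted log2 change (x axis) with its 95% interval for the 6 genes with more than 1 probe set (rows), in the Jmjd2b (left) and Jmjd2c (right) knockdown against the control; squares are the main probe set and circles the dimmer one. Both Wnt4 and both Fzd5 probe sets point the same way in both knockdowns, with the dimmer Wnt4 probe set at 0.44 against 2.19 in the Jmjd2b knockdown.

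The rest of the pathway was read from 6 lists by role. Of the 88 measured, 30 rose and 6 fell with the Jmjd2b hairpin, and 14 rose and 2 fell with the Jmjd2c hairpin. Of all genes tested, 11.5% rose and 12.9% fell in the first comparison and 4.28% and 5.25% in the second, and the counts of each list are to be read against these shares. The rises in the Jmjd2c knockdown numbered 6 without control 3, 7 with only those 2 groups in the fit, 9 without control 1, and 0 with the set of arrays as a block, where 24 of the 88 had an unadjusted p under 0.05 in limma. Calls over all genes dropped too. The main fit called 778 of the 18193 genes up and 955 down in the Jmjd2c knockdown. In either direction, those refits called 462, 874, 853 and 6, in the same order. With only genes above the median level, 18 pathway genes rose with the Jmjd2b hairpin. Not all of the 88 pass that filter. Of the 9096 genes then tested, 3686 were called, rises and falls together, so these counts cannot be compared directly. The pathway falls in the Jmjd2b knockdown numbered 3 without control 1, control 3, Jmjd2b knockdown 1 or Jmjd2b knockdown 2, and the 2 falls in the Jmjd2c knockdown became 1 without any 1 control. Over all genes, the main fit called 2097 up and 2344 down in the Jmjd2b knockdown. Those refits called 3290, 2624, 3290 and 2747 there in either direction. In the Jmjd2c knockdown, 853, 1200 and 462 were called without control 1, 2 and 3.

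Among 14 other Wnt ligands, 5 rose in the Jmjd2b knockdown and 0 passed limma's test in the Jmjd2c knockdown (3 had an unadjusted p under 0.05), with median changes of 0.20 and 0.07. Wnt8a, a ligand of the early posterior embryo, read 9.88, 9.2 and 6.51 in the controls, 105.5, 148.3 and 59.3 with the Jmjd2b hairpin and 46.3 and 22.2 with the Jmjd2c hairpin. It thus gave the same order of groups as Wnt3 and Wnt4. Its changes were 2.23 ± 0.27 (SE; adjusted p = 0.00045) and 0.99 ± 0.31 (adjusted p = 0.072). Wnt9a rose by 0.69 and Wnt5b by 1.06 in the Jmjd2b knockdown; Wnt5b missed the threshold with the mean of its probe sets (0.70, adjusted p = 0.11). In the Jmjd2c knockdown the smallest p after Wnt10b (0.52, adjusted p = 0.052) and Wnt8a belonged to Wnt10a (-0.42, adjusted p = 0.13).

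Of 16 other receptors and co-receptors, 8 rose and 1 fell with the Jmjd2b hairpin and 5 rose with the Jmjd2c hairpin, with medians of 0.72 and 0.53. Ptk7, a pseudokinase co-receptor of planar cell polarity, read 96.83, 129.1 and 133.9 in the controls, 483.4, 560.8 and 510.3 with the Jmjd2b hairpin and 339.1 and 348.0 with the Jmjd2c hairpin. It rose by 1.98 (adjusted p = 4.8e-05) and 1.41 (adjusted p = 0.0022). Ror1, a receptor for Wnt5a-type ligands, rose by 1.46 and 1.19, and Fzd10 by 1.52 in the Jmjd2b knockdown. Fzd2 read 28.64, 140.9 and 135.4 in the controls, so control 1 lay well below the others. It read 583.9, 641.4 and 983.5 with the Jmjd2b hairpin and 446.2 and 495.9 with the Jmjd2c hairpin. Its probe set is of a type that can bind related transcripts. Fzd2 rose by 2.85 in the Jmjd2b knockdown (adjusted p = 0.0011) and by 2.25 in the Jmjd2c knockdown (adjusted p = 0.018). The Jmjd2c change was 2.18 without Jmjd2c knockdown array 2. Fzd5 fell while 8 of the 16 listed receptors rose in the Jmjd2b knockdown. The 1 listed receptor that also fell there was Fzd9 (-0.45, adjusted p = 0.029).

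Among 21 genes of Wnt secretion and extracellular control, 6 rose and 2 fell with the Jmjd2b hairpin and 1 rose in the Jmjd2c knockdown, with medians of 0.11 and 0.02. The 3 with the smallest p in the Jmjd2b knockdown were Tpbg, a membrane protein that dampens Wnt signalling (1.47), Rspo3, a secreted enhancer of it (2.23), and Sfrp2, a secreted Wnt-binding protein (1.61). Sfrp2 also rose in the Jmjd2c knockdown, by 1.08 (adjusted p = 0.025), and missed the threshold without control 1 (0.90, adjusted p = 0.076), without control 3 (1.10, adjusted p = 0.088) and without Jmjd2c knockdown array 1 (0.76, adjusted p = 0.076). Rspo3 (1.08, adjusted p = 0.074) and Wif1 (0.76, adjusted p = 0.090) did not pass there. Wls, the carrier that takes Porcn-modified Wnt proteins to the cell surface, was singled out after its values were seen. It read 29.02, 34.28 and 36.19 in the controls, 291.2, 337.9 and 493.0 with the Jmjd2b hairpin and 44.6 and 436.1 with the Jmjd2c hairpin. It rose by 2.96 in the Jmjd2b knockdown (adjusted p = 0.0043), and the 2 Jmjd2c knockdown arrays lay far apart.

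Of 16 cytoplasmic genes, 2 rose and 2 fell in each knockdown, with medians of 0.04 and 0.08; in the Jmjd2b knockdown that is near the share called over all genes. The casein kinase gene Csnk1e fell by 0.88 and 0.98 (adjusted p = 0.00017 and 0.0016), while its relative Csnk1d rose by 0.84 and 0.88 (adjusted p = 0.0022 and 0.010). The Jmjd2c rise of Csnk1d was lost without control 3 (0.83, adjusted p = 0.054) and with the mean of its probe sets (0.39, adjusted p = 0.11). Btrc, part of the ligase that marks beta-catenin for destruction, rose by 0.82 and 0.81, but missed the threshold in both with the mean of its probe sets (0.21 and 0.25). Its Jmjd2c call was also lost without control 1 (adjusted p = 0.092), without control 3 (adjusted p = 0.097) and without Jmjd2c knockdown array 2 (adjusted p = 0.12).

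Among 12 nuclear genes, 4 rose and 1 fell with the Jmjd2b hairpin and 2 rose in the Jmjd2c knockdown, with medians of 0.22 and 0.21. The co-repressor gene Tle4 rose by 0.63 and 0.81 (adjusted p = 0.0024 and 0.0053). Tcf7l1, the TCF factor that acts mainly as a repressor in ES cells, rose by 0.72 and 1.11 (adjusted p = 0.012 and 0.0086); with the array set as a block the Jmjd2b call was lost (0.61, adjusted p = 0.097). Tle1 fell by 0.42 in the Jmjd2b knockdown (adjusted p = 0.027), a call lost without control 1, control 3, Jmjd2b knockdown 1 or Jmjd2b knockdown 2 (adjusted p = 0.085, 0.11, 0.098 and 0.11). Tcf7l2 changed by 0.82 in the Jmjd2c knockdown, which did not pass (adjusted p = 0.072).

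Of 14 genes known as Wnt targets, 5 rose in the Jmjd2b knockdown and 4 in the Jmjd2c knockdown, none fell in either, and 3 were lower in the Jmjd2c than in the Jmjd2b knockdown; the medians against the control were 0.30 and 0.21. Sp5, a transcription factor gene switched on by Wnt signals, read 23.21, 54.45 and 36.89 in the controls, 1177, 1767 and 1295 with the Jmjd2b hairpin and 320.5 and 129.2 with the Jmjd2c hairpin. It rose by 4.74 (adjusted p = 3.4e-05) and 2.07 (adjusted p = 0.0086). Cdx2, a caudal and trophoblast factor, rose from 5.63, 5.94 and 1.14 to 331.1, 532.1 and 463.8 in the Jmjd2b knockdown, a change of 4.48 (adjusted p = 7.0e-06). Cdx2 stood at 28.64 and 18.61 in the Jmjd2c knockdown (0.97, adjusted p = 0.026). Tnfrsf19 rose by 2.88 and 1.16. Both Jmjd2c calls depended on single arrays: that of Cdx2 was lost without control 1, control 3 or Jmjd2c knockdown array 1 (adjusted p = 0.061, 0.11 and 0.074) and with the replicate block (0.93, adjusted p = 0.061), and that of Tnfrsf19 without control 2, control 3 or either Jmjd2c knockdown array (adjusted p = 0.064, 0.085, 0.064 and 0.053) and with the replicate block (1.02, adjusted p = 0.061).

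**Figure D4:**
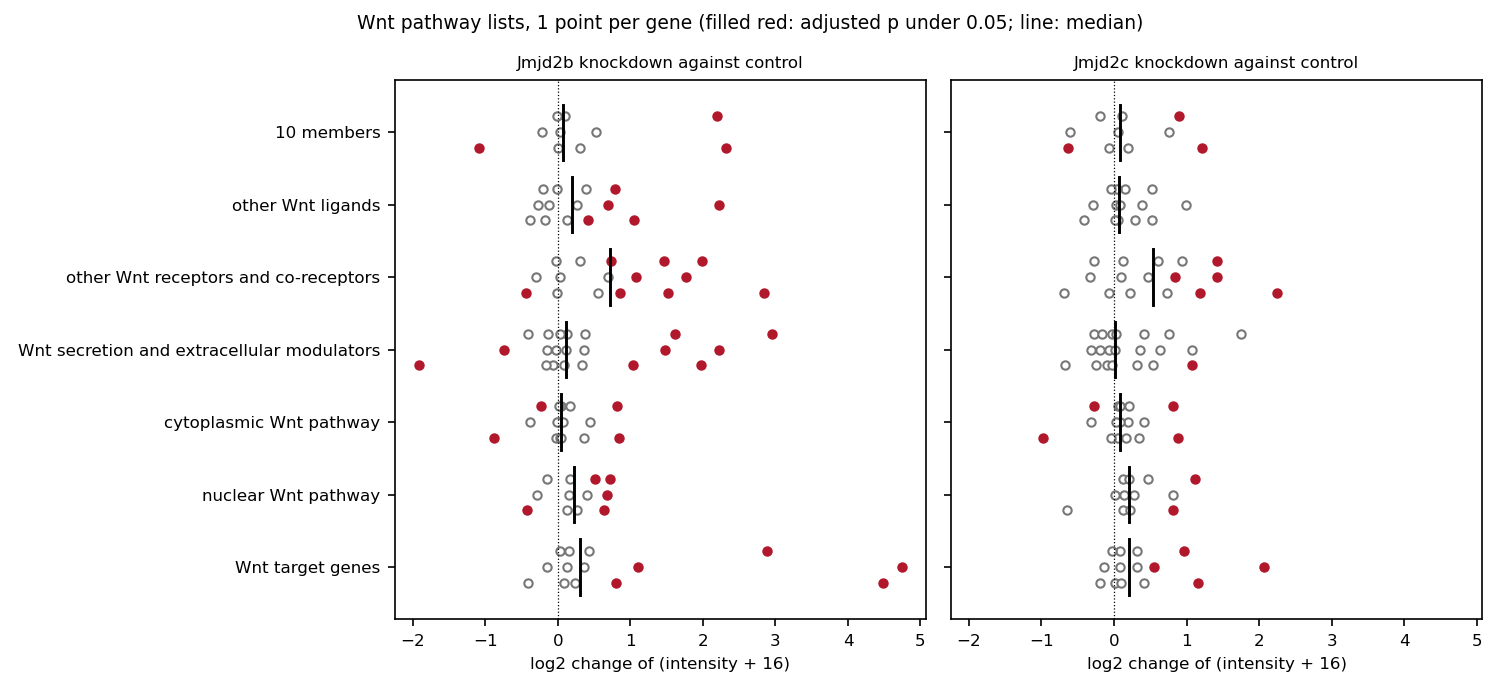
Fitted log2 change (x axis) of the 10 genes and of the 6 pathway lists (rows), 1 point per gene, in the Jmjd2b (left) and Jmjd2c (right) knockdown against the control; filled red points have an adjusted p under 0.05 and black lines are medians. The receptor list has the highest medians, 0.72 and 0.53, and Sp5 and Cdx2 are the far points of the target list at left.

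Markers of some other cell types differed between the groups. The counts called per marker list are to be read against the shares over all genes. These were 11.5% up and 12.9% down with the Jmjd2b hairpin, and 4.28% up and 5.25% down with the Jmjd2c hairpin. The summed intensity of 9 primitive streak and mesoderm markers was 288.6 to 388.5 in the controls, 967.4 to 2436 in the Jmjd2b knockdown and 600.9 to 615.8 in the Jmjd2c knockdown, with 5 and 2 of the 9 rising. Eomes had the highest mean of them in each group (169, 832 and 235) and did not pass in the Jmjd2c knockdown (0.47, adjusted p = 0.47). Mesp1, Tbx6, Foxf1 and Kdr did not pass in either, with Jmjd2b changes of 0.07, -0.09, -0.13 and -0.49. In the controls 4 of the 9 had means under 16. The list's median changes were 1.19 and 0.47, and the listed marker T had no probe set under that symbol. Of 10 neural ectoderm markers 7 and 4 rose, their sum going from 2142 to 2482 in the controls to 7915 to 15169 and 5215 to 7683. Most of that sum was Nefl (means 466, 4066 and 1661), Pou3f1 (290, 3580 and 1590) and Otx2 (871, 1704 and 2222). Pou3f1 read 2721 and 458.2 in the 2 Jmjd2c knockdown arrays. Sox1, Tubb3 and Hes5 did not pass, with Jmjd2b changes of -0.75, -0.68 and -0.09. The list's median changes were 1.51 and 1.03. The sum of 10 primitive endoderm markers was 1254 to 1938, 2710 to 3227 and 1911 to 2285 in the 3 groups, with 3 rising and 1 falling, and 1 rising. Most of that sum was Lamb1, a laminin gene (means 820, 2101 and 1266). The list's median changes were -0.03 and 0.18, and the lineage factors Gata4, Gata6 and Sox17 did not pass, with Jmjd2b changes of -0.06, -0.26 and -0.09. Foxa2, a further factor of the list, rose by 1.88 in the Jmjd2b knockdown (adjusted p = 0.0082). In the Jmjd2c knockdown it did not pass (1.22, adjusted p = 0.13). Dab2 rose by 1.35 and 0.75 (adjusted p = 0.00033 and 0.027), while Lama1 changed by -0.89 in the Jmjd2b knockdown (adjusted p = 0.0041). The 8 ES cell markers summed to 58662 to 59717 in the controls, 46019 to 48761 in the Jmjd2b knockdown and 49319 to 49646 in the Jmjd2c knockdown, with 6 and 3 falling. The 12 fibroblast markers summed to 699.7 to 765.1, 464.8 to 474.4 and 486.3 to 559.4; 3 of them were under 16 in each group. Pdgfrb (means 378, 137 and 198) and Thy1 (means 114, 36.0 and 35.2) fell in both knockdowns, Col1a1 rose in the Jmjd2b knockdown by 1.34 (adjusted p = 0.00060), and the list's median changes were 0.01 and 0.14. In whole cultures, fewer cells of a type and less RNA per cell cannot be told apart. The ratio of 3' to 5' actin probe sets, which rises with RNA degradation, was 1.45 to 1.63 in the controls, 1.31 to 1.42 in the Jmjd2b knockdown and 1.43 to 1.48 in the Jmjd2c knockdown. The same ratio for Gapdh overlapped between the groups, at 0.936 to 0.980, 0.937 to 0.987 and 0.944 to 0.987. The part of these differences in the changes of Wnt3, Wnt4 and Fzd5 was not tested.

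For the 4 genes with the largest changes, the genes with the most similar pattern over the 8 arrays were found by Pearson correlation of log2(intensity + 16), among genes above the median level. These values are a description: all arrays share the 3 groups, so genes that differ between groups correlate. Wnt3 was nearest to Apln, a secreted peptide (r = 0.9985), then Zmiz1 (0.9916) and Ap3s2 (0.9913). Wnt4 was nearest to the smooth muscle actin gene Acta2 (0.9927), the neurofilament gene Nefm (0.9902) and Cap1 (0.9892). Fzd5 was nearest to Mtch2 (0.9878), Eif2ak3 (0.9853) and Sun1 (0.9851), and Fzd7 to Usp15 (0.9817), Specc1l (0.9782) and Qrich1 (0.9754). Apln changed by 2.64 and 1.36 in the 2 knockdowns, sizes close to those of Wnt3, while Ap3s2 changed by only 0.54 and 0.30.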

How the data were processed

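Biotin-labelled cRNA from total RNA was hybridised by the array maker's standard method, per the labels' protocols. The authors deposited 1 linear intensity per probe set and array; no label or header used here states the probe summary, background correction or scaling. Of 45101 probe sets, 34945 had exactly 1 symbol in the platform annotation, 932 several and 9160 none; 64 were array controls. Values were taken as log2(intensity + 16), which understates changes of dim genes. The probe set with the highest mean on that scale stood for its gene. Group means were fitted over all 8 arrays in limma 3.58.1 (R 4.3.3; lmFit, then eBayes with a trend), so that the 2 Jmjd2c knockdown arrays share the estimate of spread. Tests were two-sided, adjusted by Benjamini-Hochberg over 18193 genes, and checked on simulated data. With arrays, the number of replicates limits the precision.

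The text names all 10 genes and, per pathway list, the 3 genes with the smallest p in each knockdown. Genes, lists and tests were chosen with earlier results of these data known. Deviations from the group means of same-numbered control and Jmjd2b knockdown arrays correlated at 0.176, 0.111 and 0.116 (other pairs -0.127 to 0.0164). Same-numbered pairs were the highest, but all values were low. Deviations within a group sum to 0, so the pairs are not independent of each other. The labels state no pairing, and the main fit used none. Same-numbered Jmjd2c knockdown and control arrays correlated at 0.0422 and 0.064. Alternatives were the added constant, a filter on dim genes, scaling, choice of probe set, trend, samples in the fit, replicate number, array type or array set as a block, and leaving out each array. Promoters came from RefSeq (GRCm38.p6), with 6 of the 10 genes matched by symbol. Tables and figures were made with Python 3.11.15, pandas 2.3.3 and matplotlib 3.10.9.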

Additional observations from a re-analysis of the deposited data

How the results depend on the processing

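In the Jmjd2b knockdown, the calls of Wnt3, Wnt4 and Fzd5 held in all alternatives that tested them. The alternatives on choice of probe set could not change the Wnt3 estimate, since it has a single probe set, and binding of related transcripts there was not tested. With only genes above the median level, 0 members rose in the Jmjd2b knockdown and 0 rose in the Jmjd2c knockdown. With that filter 0 were lower in the Jmjd2c than in the Jmjd2b knockdown, because Wnt3 and Wnt4 are dimmer than that level. In the Jmjd2c knockdown, 1 member rose with array type (a floor at 1 or none) as a block, Wnt4 then being at 0.77 (adjusted p = 0.086). With the array set as a block 0 rose and 0 fell. Leaving out 1 array at a time gave 1 to 2 rises and 0 to 2 falls. Between the knockdowns, the 1 fall (Wnt4) became 0 with only those 2 groups in the fit (adjusted p = 0.15) and with array type (-1.36, adjusted p = 0.063) or array set as a block, 2 with 64 added before the logarithm or the replicate block, and 0 to 2 without 1 array. The replicate block also ended the Jmjd2b call of Wnt10b (0.42, adjusted p = 0.055), beside the changes in the calls of Fzd7, Wnt3, Cdx2 and Tnfrsf19 given above, and changed no other call of a named gene; 1 pathway gene then fell in the Jmjd2c knockdown in place of 2. Of the named pathway genes in the Jmjd2c knockdown, Fzd2, Sfrp2, Btrc and Tnfrsf19 missed the threshold with only those 2 groups in the fit (adjusted p = 0.053, 0.065, 0.060 and 0.070), Fzd2, Sfrp2 and Btrc with array type as a block (0.089, 0.081 and 0.065), and Cdx2 with 64 added or the mean of its probe sets (0.20 and 0.12).

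Sign changes among the 10 genes were all of uncalled changes. In refits, those in the Jmjd2b knockdown were Wnt3a with array type as a block (-0.0014) and -0.069 to 0.056 without 1 array, Porcn with quantile normalization (0.026), centred arrays (0.029) or array set (0.014) and -0.22 to 0.10 without 1 array, Wnt6 (-0.072 to 0.15) and Lrp6 (-0.067 to 0.22) without 1 array. In the Jmjd2c knockdown they were Wnt6 (-0.028) and Lrp6 (-0.073) with the mean of probe sets, Lrp5 with array type (-0.0053) or array set (-0.050), Wnt7b with array set (0.17), and without 1 array Wnt7b (-0.23 to 0.069) and Lrp6 (-0.28 to 0.40). Between the knockdowns they were Wnt6 (-0.35) and Wnt7b (-0.0061) with the mean of probe sets, Wnt6 with the replicate block (-0.0032), Fzd7 with array set (-0.15), and without 1 array Wnt6 (-0.036 to 0.19), Lrp5 (-0.30 to 0.028) and Lrp6 (-0.38 to 0.29). In values within 1 array type, with no test, the sign also differed in the Jmjd2b knockdown for Wnt3a (-0.14), Wnt7b (0.18), Lrp5 (-0.091), Porcn (0.15) and Lrp6 (-0.036), and in the Jmjd2c knockdown for Lrp6 (-0.052); within the set of control 3 and Jmjd2b knockdown 1 it differed for Lrp6 (-0.056), and within that of the Jmjd2c knockdown arrays for Fzd7 (-0.15). The cause of these shifts was not tested. Leaving out 1 of 2 Jmjd2c knockdown arrays assumes that the lone array varies like the other groups. Probe sets near background limit what can be read for Lrp5 and for Wnt3 in the controls.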
